A study of Mus musculus with 3 samples.

Results

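Slc5a1, Slc2a2, Slc2a5, Slc5a4a, Khk and Tkfc, genes of intestinal sugar uptake and fructose breakdown, are 6 of the 31053 genes in the count tables. They were taken by symbol from the gene lists of the libraries, and all 6 were found there. Another 49 genes of sugar transport and metabolism served as the surrounding pathway. The cells came from the small intestine of male C57BL/6N mice of genotype WT at 12 weeks of age, with no treatment or transgene named. Cells of 3 mice were pooled, sorted as live by exclusion of propidium iodide, and made into 1 droplet library for each of the duodenum, the jejunum and the ileum. A segment therefore has no replicate, and the mice cannot be told apart.

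Glucose and galactose cross the brush border of enterocytes together with sodium through SGLT1, the product of Slc5a1, while fructose enters through GLUT5, the product of Slc2a5. GLUT2, encoded by Slc2a2, carries sugars across the basolateral membrane, and the sodium pump keeps the gradient that SGLT1 uses. Inside the cell ketohexokinase (Khk) phosphorylates fructose, the product is split, and triokinase (Tkfc) phosphorylates the glyceraldehyde so formed. Slc5a4a encodes SGLT3a, a relative of SGLT1.

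On GRCm38, in the GENCODE M21 annotation, Slc5a1 (ENSMUSG00000011034) lies at chr5:33104219-33162870 and Khk (ENSMUSG00000029162) at chr5:30921431-30931248, both on the plus strand. Slc2a2 (ENSMUSG00000027690) is at chr3:28697903-28731359, Slc2a5 (ENSMUSG00000028976) at chr4:150119283-150144169 and Slc5a4a (ENSMUSG00000020229) at chr10:76147451-76189265, also on the plus strand. Tkfc (ENSMUSG00000034371) is at chr19:10587791-10605654 on the minus strand. The kit reads the 3′ ends of transcripts. The last exon of Tkfc overlaps Cyb561a3 and that of Slc2a2 overlaps 1700112D23Rik, each on the opposite strand. Of the windows of 31 bases in the Slc5a4a transcript, 1.98% occur in that of Slc5a4b, and 0% of those in its last 600 bases do.

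The promoters of the 6 genes (RefSeq, GRCm38.p6, 250 bases before to 50 after the start, on the gene's strand) were read as a description. They were searched on both strands for the E-box CACGTG and for GTTAAT, a half-site of HNF1. Those of Slc5a1, Khk and Slc5a4a hold a match and are printed with it in capitals. The E-box is at position -143 in Slc5a1 and at -71 in Khk, counted from the start site. GTTAAT is at -60 in Khk, and its reverse complement ATTAAC is at 12 in Slc5a4a. Of 32851 promoters of this length 7.15% hold the E-box and 7.10% the half-site. The windows of Slc2a2, Slc2a5 and Tkfc hold neither. Whether a match bears on the level of a gene was not tested.
Slc5a1, chr5:33103969-33104268, plus strand: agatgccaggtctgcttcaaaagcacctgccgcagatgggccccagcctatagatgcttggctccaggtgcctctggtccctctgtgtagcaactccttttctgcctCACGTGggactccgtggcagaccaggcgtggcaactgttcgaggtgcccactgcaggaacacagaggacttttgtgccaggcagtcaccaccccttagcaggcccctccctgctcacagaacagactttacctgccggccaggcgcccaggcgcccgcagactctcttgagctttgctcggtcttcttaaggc
Khk, chr5:30921309-30921608, plus strand: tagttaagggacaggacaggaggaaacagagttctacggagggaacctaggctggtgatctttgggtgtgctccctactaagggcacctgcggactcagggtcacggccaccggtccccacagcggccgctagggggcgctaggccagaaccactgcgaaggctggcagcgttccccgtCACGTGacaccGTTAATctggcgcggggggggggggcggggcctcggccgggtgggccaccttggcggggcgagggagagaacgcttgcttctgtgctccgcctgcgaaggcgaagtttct
Slc5a4a, chr10:76147201-76147500, plus strand: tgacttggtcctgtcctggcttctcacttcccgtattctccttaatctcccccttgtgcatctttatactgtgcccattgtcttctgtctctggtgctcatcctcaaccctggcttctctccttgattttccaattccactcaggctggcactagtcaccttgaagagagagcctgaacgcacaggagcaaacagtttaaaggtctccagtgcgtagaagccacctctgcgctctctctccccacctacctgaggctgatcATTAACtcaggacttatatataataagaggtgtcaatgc

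The libraries held 78074516 to 98518847 UMIs (unique molecular identifiers, each marking 1 captured transcript). After the study's filters the duodenum kept 4255 cells, the jejunum 4360 and the ileum 8071, with 5536 to 12424 UMIs per cell at the median. The median mitochondrial share was 27.1%, 27.2% and 11.1% in this order. Between 4 and 12 cell barcodes were shared by any pair of libraries. Clusters were named from marker lists, with the 6 genes and the pathway genes kept out of the clustering. This gave 10532 enterocytes, 1179 early enterocytes, 171 enteroendocrine cells (EECs) and 1228 T cells, and 8.96% of cells stayed unnamed. Segment markers followed the labels, with Cybrd1 in enterocytes at 3.54 UMIs per 10000 in the duodenum and at most 0.00804 elsewhere, and Fabp6 at 135 in the ileum. A level is a gene's UMIs among each 10000 UMIs counted in the cells concerned. Levels carry 95% intervals that are exact Poisson intervals and cover counting error only.

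By the mean of the 3 libraries all 6 genes were highest in enterocytes or early enterocytes. Each was higher in enterocytes than in goblet cells, tuft cells, EECs, ISC/proliferating cells and T cells. Sums of UMIs per class and library entered edgeR's quasi-likelihood fit, blocked by library, and p-values were adjusted by the Benjamini-Hochberg method over 12346 genes. Other named classes with sums in several libraries entered the same fit and shared its estimate of the spread. The p-values set a class difference against this shared spread between libraries of the same pooled mice, which are also segments. The count of 6 of 6 genes stood against 26% of all genes tested higher in enterocytes than in goblet cells (15.8% lower), 29.7% for tuft cells (19.6% lower), 30.2% for EECs (25.3% lower), 35.3% for ISC/proliferating cells (29.6% lower) and 37.2% for T cells (27.2% lower). The log2 differences of the 6 genes lay between 1.65 and 5.70, while the median of all genes lay between 0.17 and 0.31. Of all calls 54.4 to 62.1% were higher in enterocytes, against 22.5 to 52.8% without TMM scaling, where the median of all genes was -0.79 to 0.07, and 37.7 to 48.4% with DESeq2. Against these 5 classes the direction of the 6 genes was the same under each scaling.

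**Figure D1:**
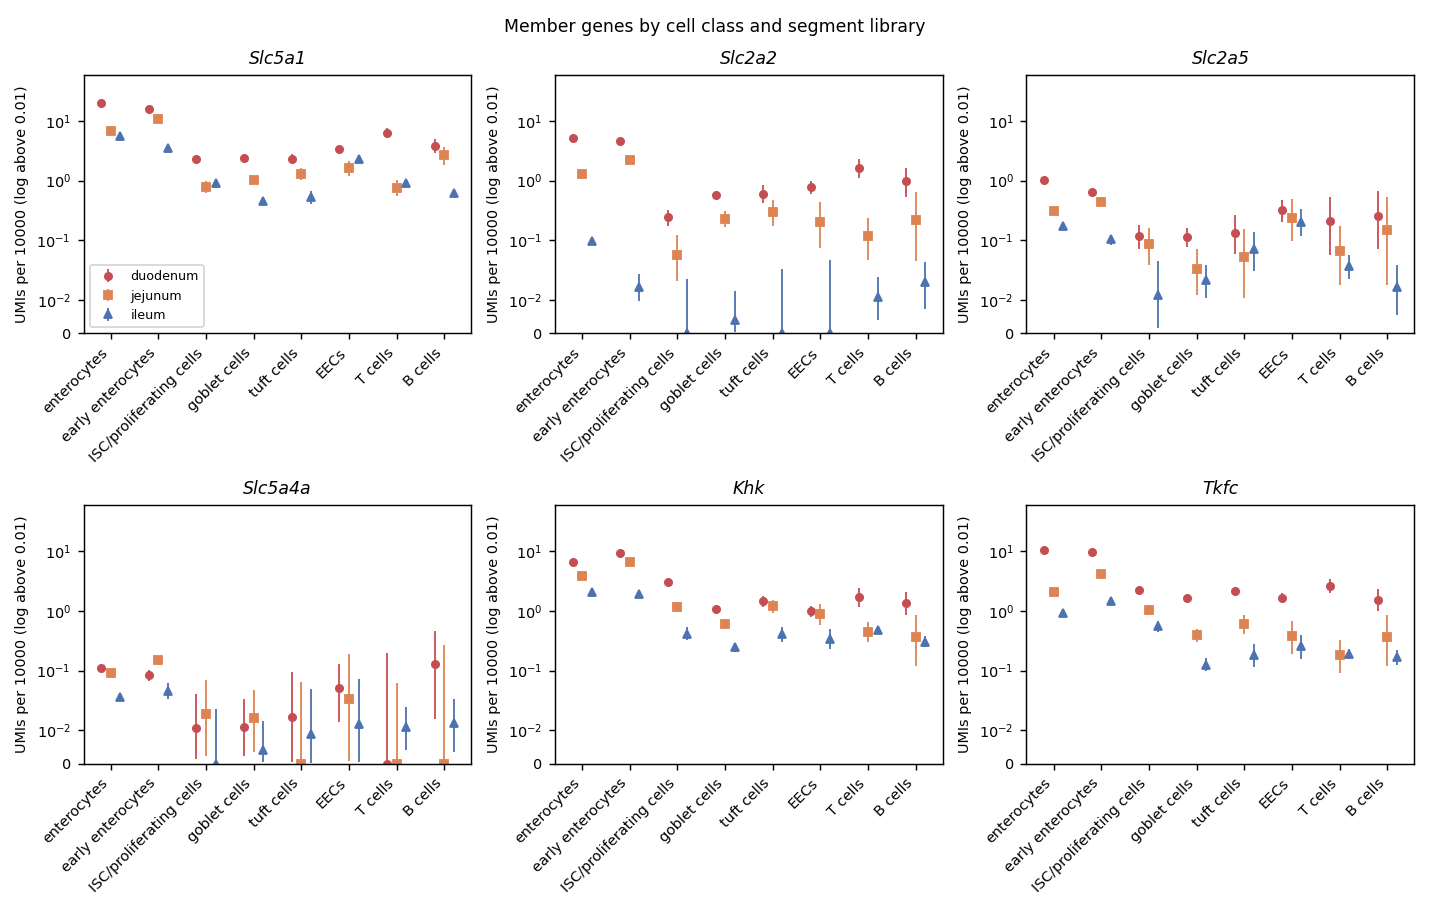
UMIs per 10000 of each gene (vertical axis, logarithmic above 0.01) in 8 cell classes, 1 point for each segment library, bars for 95% Poisson intervals. Enterocytes or early enterocytes hold the highest point of each library, except that B cells are highest for Slc5a4a in the duodenum (0.129) and EECs for Slc2a5 in the ileum (0.204).

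Slc5a1 stood at 19.8, 6.84 and 5.53 UMIs per 10000 in enterocytes of the duodenum, jejunum and ileum. In goblet cells the same libraries gave 2.37, 1.03 and 0.460, below enterocytes in 3 of 3 libraries (log2 fold change 3.30, SE 0.44, adjusted p = 6.3e-07). ISC/proliferating cells, which include the stem cells of the crypt, gave 2.32, 0.784 and 0.906 (log2 fold change 3.86, SE 0.45, adjusted p = 3.0e-08). EECs gave 3.44, 1.60 and 2.32, also below enterocytes in each library (log2 fold change 2.82, SE 0.44, adjusted p = 3.7e-06). Enterocytes of a library were above these 3 classes of the same library throughout.

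Slc2a2 gave 5.27, 1.30 and 0.0974 UMIs per 10000 in enterocytes. ISC/proliferating cells gave 0.244, 0.0574 and 0, and the fitted difference (log2 fold change 5.70, SE 0.58, adjusted p = 2.4e-09) rests in part on that 0. Tuft cells and EECs of the ileum also held 0 UMIs of Slc2a2. In a fit without the library block, Slc2a2 did not pass in 4 of the 5 comparisons (adjusted p between 0.0978 and 0.157), and Tkfc did not pass against goblet cells (0.0718) and ISC/proliferating cells (0.0524).

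Slc2a5, the fructose carrier, gave 1.03, 0.306 and 0.172 UMIs per 10000 in enterocytes and 0.317, 0.238 and 0.204 in EECs. Enterocytes were the higher class in 2 of 3 libraries. In the ileum EECs were higher, with overlapping 95% intervals of 0.158 to 0.187 in enterocytes and 0.117 to 0.332 in EECs. Over the 3 libraries the test placed EECs lower (log2 fold change 1.65, SE 0.38, adjusted p = 5.7e-04), a call lost without TMM scaling (adjusted p = 0.149), with DESeq2 (0.0520) and without the duodenum (0.177). In goblet cells Slc2a5 was at 0.113, 0.0326 and 0.0218, below enterocytes in each library (log2 fold change 3.21, SE 0.37, adjusted p = 8.0e-08).

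Slc5a4a was rare, at 0.112, 0.0903 and 0.0356 UMIs per 10000 in enterocytes and 0.0507, 0.0340 and 0.0128 in EECs. Enterocytes were higher in 3 of 3 libraries (log2 fold change 2.14, SE 0.60, adjusted p = 0.00370), but the difference did not pass without TMM scaling (adjusted p = 0.114). In T cells 6 UMIs of the gene were counted in all.

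Khk gave 6.71, 3.87 and 2.09 UMIs per 10000 in enterocytes and 9.498, 6.59 and 1.95 in early enterocytes. ISC/proliferating cells gave 3.10, 1.17 and 0.419, below enterocytes in each library (log2 fold change 2.61, SE 0.31, adjusted p = 3.6e-08). Tkfc gave 10.7, 2.06 and 0.931 in enterocytes, 9.89, 4.18 and 1.48 in early enterocytes and 2.27, 1.05 and 0.561 in ISC/proliferating cells (log2 fold change 2.23, SE 0.31, adjusted p = 4.3e-07). By the mean of libraries the proliferating class came next after enterocytes and early enterocytes for both enzymes of fructose breakdown. In the duodenum, however, Tkfc in this class lay below its level in T cells (2.65), and so did Khk in the ileum (0.489). In goblet cells Khk gave 1.06, 0.603 and 0.246 and Tkfc 1.66, 0.391 and 0.127.

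Early enterocytes, less mature cells, were named from 10 markers, of which 6 were highest in this class. The list holds Reg3b and Reg1, the latter at 113 UMIs per 10000 at the villus bottom in the duodenum and 0.219 in the ileum. Between enterocytes and early enterocytes 27% of all genes were called higher and 16.9% lower in enterocytes. Slc2a5 alone of the 6 passed this edgeR test (log2 fold change 0.74, SE 0.29, adjusted p = 0.0426, higher in enterocytes in 2 of 3 libraries). The call was lost in 13 of 15 other ways of processing the data, among them DESeq2 (adjusted p = 0.359) and the fit without any 1 of the libraries. For the other 5 genes the adjusted p lay between 0.0893 and 0.881. Khk had a mean level of 4.22 UMIs per 10000 in enterocytes and 6.01 in early enterocytes, while its scaled log2 difference was 0.09, and the sign changed with the scaling.

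The order of the classes by their mean over libraries began with enterocytes and early enterocytes for every gene. EECs followed for Slc2a5, ISC/proliferating cells for Khk and Tkfc, T cells for Slc5a1 and Slc2a2, and B cells for Slc5a4a. The ranges over libraries overlapped between all neighbours in these orders.

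T cells, which do not absorb sugar, show how much RNA of other cells the droplets may hold. Whether that RNA was free or came with a second cell was not tested. T cells gave 6.36, 0.768 and 0.928 UMIs of Slc5a1 per 10000 in the duodenum, jejunum and ileum, the first from 35 cells. All 12 enterocyte marker genes had UMIs in T cells, at a summed level of 100.2 to 173 per 10000 against 652 to 1174 in enterocytes. Without the 10% of T cells that held the largest share of these markers, Slc5a1 went from 1.08 to 0.292 per 10000 over all libraries, since the cells left out held 78.3% of its UMIs. Slc2a2 went from 0.0716 to 0.0101 and Khk from 0.522 to 0.278. In ISC/proliferating cells the same step took Khk from 1.68 to 1.60 and Tkfc from 1.37 to 1.22, and in goblet cells it took Slc5a1 from 1.10 to 0.596. The share of a gene's UMIs held by the T cells left out ran from 57.3% for Khk to 88.6% for Slc2a2. Whether T cells express any of these genes themselves was not tested. Levels at or below those of T cells are therefore taken only as not told apart from RNA of other cells. Levels were compared without their intervals, and those of duodenal T cells rest on 35 cells. Of goblet cells, tuft cells, EECs and ISC/proliferating cells, this limit covers all 4 in the duodenum for Slc5a1, Slc2a2 and Tkfc. There it covers all but ISC/proliferating cells for Khk and all but EECs for Slc2a5. In the ileum it covers all 4 for Khk and Slc2a2, all but EECs for Slc5a1 and Slc5a4a, goblet cells and ISC/proliferating cells for Slc2a5, and goblet and tuft cells for Tkfc. In the jejunum it covers ISC/proliferating cells for Slc2a2 and goblet and tuft cells for Slc2a5.

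After each cell was thinned to 800 UMIs, at least 1 UMI of Slc5a1 was found in 44.9% of enterocytes (exact 95% binomial interval 44.0 to 45.9%), 16.4% of EECs (11.2 to 22.8%) and 3.75% of T cells (2.76 to 4.97%). Unthinned, these shares were 88.8%, 63.7% and 17.9%, at 9844, 6092 and 4278 UMIs per cell at the median. The thinned shares for Khk were 23.6% of enterocytes, 30.4% of early enterocytes and 3.01% of T cells, from 74.3%, 94.8% and 15.5% unthinned. For Slc2a2 they were 11.02%, 13.5% and 0.244%, from 38.8%, 51.7% and 1.63%. Summed over libraries, the share in T cells was the lowest of those given for each of these 3 genes. Of 1228 T cells 1086 were ileal, against 4031 of 10532 enterocytes, so the classes differ in segment make-up. Among ileal cells the thinned Slc5a1 shares were 34.5% of enterocytes, 11.7% of EECs and 3.31% of T cells. Among duodenal cells they were 68.8%, 24.5% and 20.0%, the last from 35 cells. For Slc2a2 the ileal shares were 1.04% of enterocytes, 0% of early enterocytes and 0.0921% of T cells. Duodenal ones were 28.5%, 30.1% and 2.86%.

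EECs sense nutrients and release hormones. Their subtypes were set by the study's hormone thresholds, and with 8 to 60 cells each they were not tested. Slc5a1 stood at 3.66 UMIs per 10000 in the 21 K cells (95% interval 3.03 to 4.39), 3.38 in the 8 L cells (2.44 to 4.55) and 3.27 in the 9 D cells (2.43 to 4.31). It stood at 1.74 in the 60 N cells (1.40 to 2.14), 1.65 in the 45 EC cells (1.27 to 2.12) and 0.818 in the 12 I cells (0.468 to 1.33). Summed over libraries, the intervals of K, L and D cells overlap none of the other 3, but the subtypes came from different segments: 7 of 8 of the L cells and 53 of 60 of the N cells were from the ileum, and 6 of 9 of the D cells from the duodenum. Within segments the separation did not hold throughout. With 95% intervals in brackets, K cells gave 6.17 [4.92 to 7.65] in the duodenum, 1.02 [0.487 to 1.87] in the jejunum and 2.77 [1.78 to 4.13] in the ileum. The jejunal K cells overlapped the jejunal N cells (1.05 [0.453 to 2.07]), the ileal K cells the ileal N cells (1.86 [1.48 to 2.32]), and the duodenal D cells (3.09 [2.17 to 4.28]) the duodenal EC cells (2.08 [1.54 to 2.74]). Other pairs were apart: the ileal L cells (3.80 [2.71 to 5.17]) lay above the ileal N cells, and the duodenal K cells above the duodenal EC cells. The levels of duodenal K and D cells were also below that of duodenal T cells (6.36). EC and N cells held 4097 and 4818 UMIs per cell at the median, and the other 4 subtypes 16810 to 19553.

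Slc2a5 was counted in 11 of the 21 K cells and 6 of the 8 L cells, at 0.626 (0.382 to 0.967) and 0.707 (0.323 to 1.34) UMIs per 10000. These levels rest on 20 and 9 UMIs. K cells gave 0.818, 0.406 and 0.578 in the duodenum, jejunum and ileum. In the ileum the intervals of K cells (0.188 to 1.35) and L cells (0.267 to 1.37) lay above that of enterocytes (0.158 to 0.187). They rest on 5 and 7 UMIs in 7 cells each. Both intervals include the level of ileal enterocytes in villus zone 2 (0.320), the zones being defined below. In N cells, most of them from the ileum, Slc2a5 stood at 0.0588 (0.0121 to 0.172). Enterocyte markers stood at 67.8 and 41.6 per 10000 in K and L cells, 56.6 in I cells and 105 in N cells, and their part in these levels was not tested. Without the EECs that held most enterocyte markers, Slc2a5 in EECs went from 0.257 to 0.263 per 10000, and Slc2a2 from 0.359 to 0.190.

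**Figure D2:**
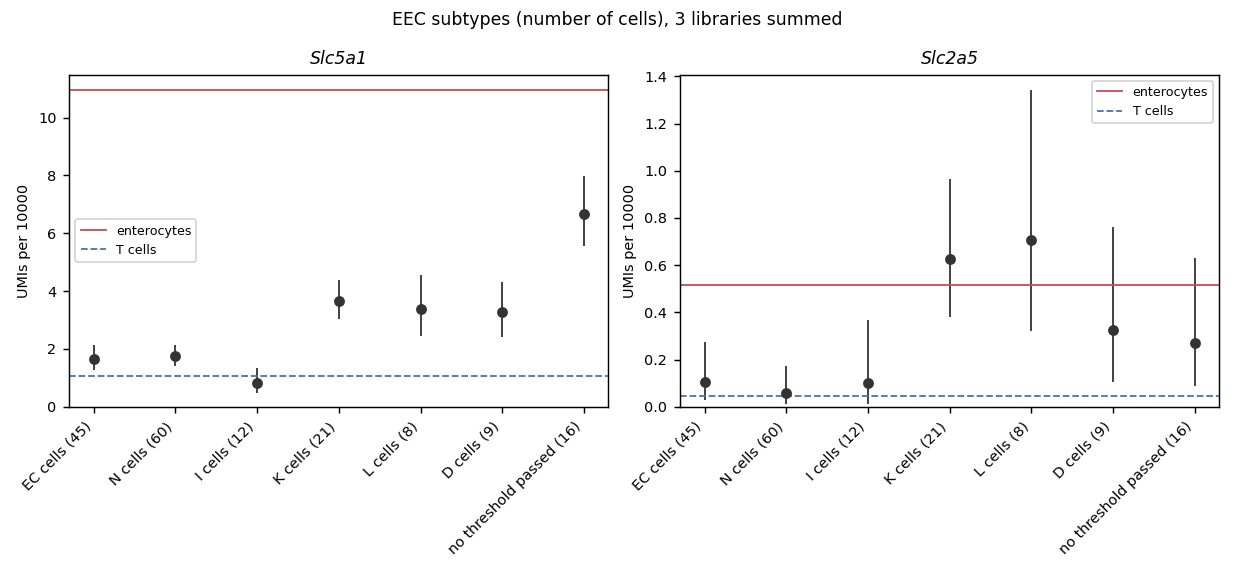
UMIs per 10000 of Slc5a1 (left) and Slc2a5 (right) in EEC subtypes, the number of cells in brackets, 3 libraries summed, bars for 95% Poisson intervals, lines for enterocytes and T cells. For Slc2a5 the intervals of K, L and D cells and of the cells past no threshold include the enterocyte level of 0.518, and for Slc5a1 no subtype reaches the enterocyte level of 10.96.

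Khk lay between 0.236 and 0.720 UMIs per 10000 in the 6 subtypes, and Tkfc between 0.215 and 1.70. The 16 EECs that passed no threshold held the most enterocyte markers, 178 per 10000, together with the most Slc5a1 (6.68), Khk (2.16) and Tkfc (2.42).

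Along the gut, enterocytes of the duodenum held the most of each gene. All 6 genes were past 2-fold higher in the duodenum than in the ileum, where 14.3% of 6968 genes over a floor of 0.1 UMIs per 10000 were and 11.9% were past it in the other direction. Slc2a2 differed 54.1-fold (48.4 to 60.7), with 95% counting intervals in brackets, Tkfc 11.5-fold (11.1 to 11.9) and Slc2a5 5.98-fold (5.47 to 6.54). Slc5a1 differed 3.59-fold (3.53 to 3.65), Khk 3.20-fold (3.12 to 3.29) and Slc5a4a 3.16-fold (2.57 to 3.91). In the middle zone of the villus alone Slc2a2 differed 122-fold (87.4 to 175), and by the mean of the cells 39.2-fold. With 1 library per segment these ratios compare libraries, have no test, and leave out the spread between animals. Early enterocytes differed for Slc5a4a, with 0.149 UMIs per 10000 in the jejunum and 0.0835 in the duodenum.

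Between the duodenum and the jejunum 4 of the 6 genes passed 2-fold, against 8.88% of genes higher in the duodenum and 4.69% in the jejunum. They were Tkfc at 5.18-fold (5.07 to 5.30), Slc2a2 at 4.06-fold (3.94 to 4.18), Slc2a5 at 3.36-fold (3.16 to 3.57) and Slc5a1 at 2.90-fold (2.86 to 2.94). Khk, at 1.73-fold (1.70 to 1.77), and Slc5a4a, at 1.25-fold (1.09 to 1.43), did not pass. In the middle zone alone 6 of 6 passed, with Khk at 2.04-fold (1.96 to 2.13), Slc5a4a at 6.33-fold (3.93 to 10.7) and Slc2a2 at 7.84-fold (7.26 to 8.47). Between the jejunum and the ileum Slc2a2 passed at 13.3-fold (11.9 to 14.98) and Tkfc at 2.21-fold (2.12 to 2.31), against 4.88% of genes higher in the jejunum and 8.58% in the ileum. Slc5a1 differed 1.24-fold (1.21 to 1.26), and Slc5a4a, under the floor in both segments, 2.54-fold (2.06 to 3.15). The mitochondrial share differs between these libraries: with mitochondrial genes left out 5 genes passed, as with cells of at most 20% mitochondrial UMIs and with TMM factors, while 1 passed by the mean of the cells, where Slc2a2 was at 8.54-fold, and 1 in the middle zone alone, where Slc5a4a was at 0.695-fold (0.357 to 1.35). With at most 20% mitochondrial UMIs Slc2a5 was at 2.79-fold and Slc5a4a at 4.45-fold.

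**Figure D3:**
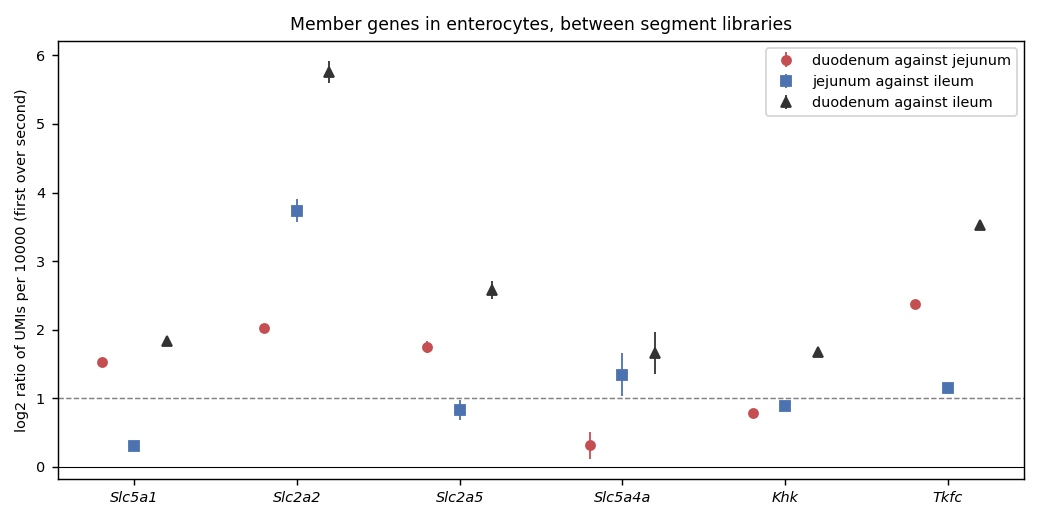
log2 ratio of UMIs per 10000 in enterocytes between segment libraries for each gene, with 95% counting intervals and a dashed line at 2-fold (log2 of 1). Slc2a2 has the highest point, 5.76 for the duodenum against the ileum, and no point lies below 0.

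Single enterocytes varied within each segment. Slc5a1 ranged from 4.55 to 32.3 UMIs per 10000 between the 10th and 90th percentile of cells in the duodenum, with a median of 17.9, and the medians in the jejunum and ileum were 4.77 and 4.49. Slc2a2 had a median of 4.01 in the duodenum and 0 in the other segments, where 38.0% and 5.58% of enterocytes held a UMI of it. For Tkfc the medians were 7.53, 1.15 and 0 from the duodenum to the ileum.

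Position along the villus was read from landmark genes. Enterocytes and early enterocytes of each library were ranked by 9 tip genes less 10 bottom genes, none of them among the 6, and divided into 5 zones of equal size from the bottom (zone 1) to the tip (zone 5). A zone is a rank within a library, not a measured height. Of zone 1, 49.4% were early enterocytes. Most of the bottom genes, among them Reg1, Reg3b and Reg3g, are also markers that named this class, so this share is no independent check of the zones. The median UMIs per cell were 17009 in zone 1 and 8610 in zone 5, and T cell markers had a median of 0 in each zone.

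All 6 genes fell towards the tip. Against the bottom zone 6 of 6 were lower in the tip zone, where 37.2% of 11133 genes were lower and 33.6% higher, with log2 fold changes from -1.29 to -4.30 and a median of all genes of -0.10. Against the middle zone 6 of 6 were lower too, where 19.3% of genes were lower and 20.6% higher, in 3 of 3 libraries each. Between the bottom and the middle zone 0 of 6 passed by edgeR, with an unadjusted p under 0.05 for 2 of them (Slc5a4a and Tkfc), and 1 passed by DESeq2. Without early enterocytes 5 of 6, all but Slc5a1, were lower in the middle zone (adjusted p between 0.00589 and 0.0215). In the first fit 24.6% of all genes fell and 23.5% rose between these zones. Of all calls between tip and bottom 47.5% were higher at the tip, against 26.0% without TMM scaling, where the median of all genes was -0.70. For the tip against the middle zone these shares were 51.6% and 16.6%, and for the middle against the bottom zone 48.9% and 36.1%.

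Slc5a1 ran 19.1, 23.8, 22.1, 17.9 and 8.95 UMIs per 10000 from zone 1 to zone 5 in the duodenum. In the jejunum it ran 12.2, 10.4, 6.41, 3.51 and 1.22, and in the ileum 4.70, 7.89, 6.88, 4.45 and 2.07. It fell by 1.29 on the log2 scale (SE 0.33, adjusted p = 0.00342) from the bottom to the tip. Among all UMIs the segments changed places along the villus: the jejunum exceeded the ileum in zones 1 and 2, and the ileum exceeded the jejunum in zones 3, 4 and 5. The 95% counting intervals were apart in each zone. The median mitochondrial share was 29.9% in the jejunum and 13.6% in the ileum in zone 3, and 25.6% and 8.09% in zone 5. Whether the order in zones 3, 4 and 5 holds with mitochondrial genes left out was not tested.

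Slc2a2 gave 5.70, 7.01, 6.18, 3.93 and 1.02 in the duodenum, 2.82, 2.28, 0.789, 0.230 and 0.0528 in the jejunum and 0.0763, 0.261, 0.0508, 0.0137 and 0.00396 in the ileum. It fell by 3.39 on the log2 scale (SE 0.63, adjusted p = 3.8e-04) from the bottom to the tip. Zone 2 held the most Slc2a2 in the duodenum and the ileum, and zone 1 in the jejunum.

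Slc2a5 gave 0.978, 1.496, 1.09, 0.659 and 0.212 in the duodenum, 0.503, 0.502, 0.302, 0.128 and 0.0466 in the jejunum and 0.182, 0.320, 0.187, 0.0725 and 0.0106 in the ileum. It fell by 2.40 on the log2 scale (SE 0.27, adjusted p = 6.4e-06). Its highest zones were the same as those of Slc2a2 in each segment.

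Slc5a4a had 3, 3 and 5 UMIs at the tip of the duodenum, jejunum and ileum. Against the bottom zone the ratios were 0.0358 (95% counting interval 0.00732 to 0.106) in the duodenum, 0.0150 (95% counting interval 0.00308 to 0.0443) in the jejunum and 0.101 (95% counting interval 0.0320 to 0.244) in the ileum. It stood at 0.126, 0.245 and 0.0655 UMIs per 10000 in the bottom zone, and at 0.134, 0.0212 and 0.0305 in the middle zone. At the bottom the jejunum was above the duodenum, with 95% counting intervals apart. The fitted fall from bottom to tip was 4.30 on the log2 scale (SE 0.77, adjusted p = 2.8e-04).

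Khk gave 9.61, 8.70, 7.18, 5.21 and 2.27 UMIs per 10000 from bottom to tip in the duodenum, 7.01, 5.75, 3.52, 2.19 and 0.940 in the jejunum and 2.44, 3.64, 2.52, 1.12 and 0.412 in the ileum. It fell by 1.92 on the log2 scale (SE 0.20, adjusted p = 3.7e-06), and each library was lowest in zone 5. Tkfc gave 12.1, 15.4, 11.5, 6.66 and 2.49 in the duodenum, 4.34, 2.85, 1.66, 1.13 and 0.632 in the jejunum and 1.49, 1.46, 1.03, 0.610 and 0.387 in the ileum, and fell by 1.74 on the log2 scale (SE 0.22, adjusted p = 1.5e-05). Without the library block 2 of the 6 genes, Slc5a4a and Khk, passed between bottom and tip, and 0 of 6 between middle and tip.

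**Figure D4:**
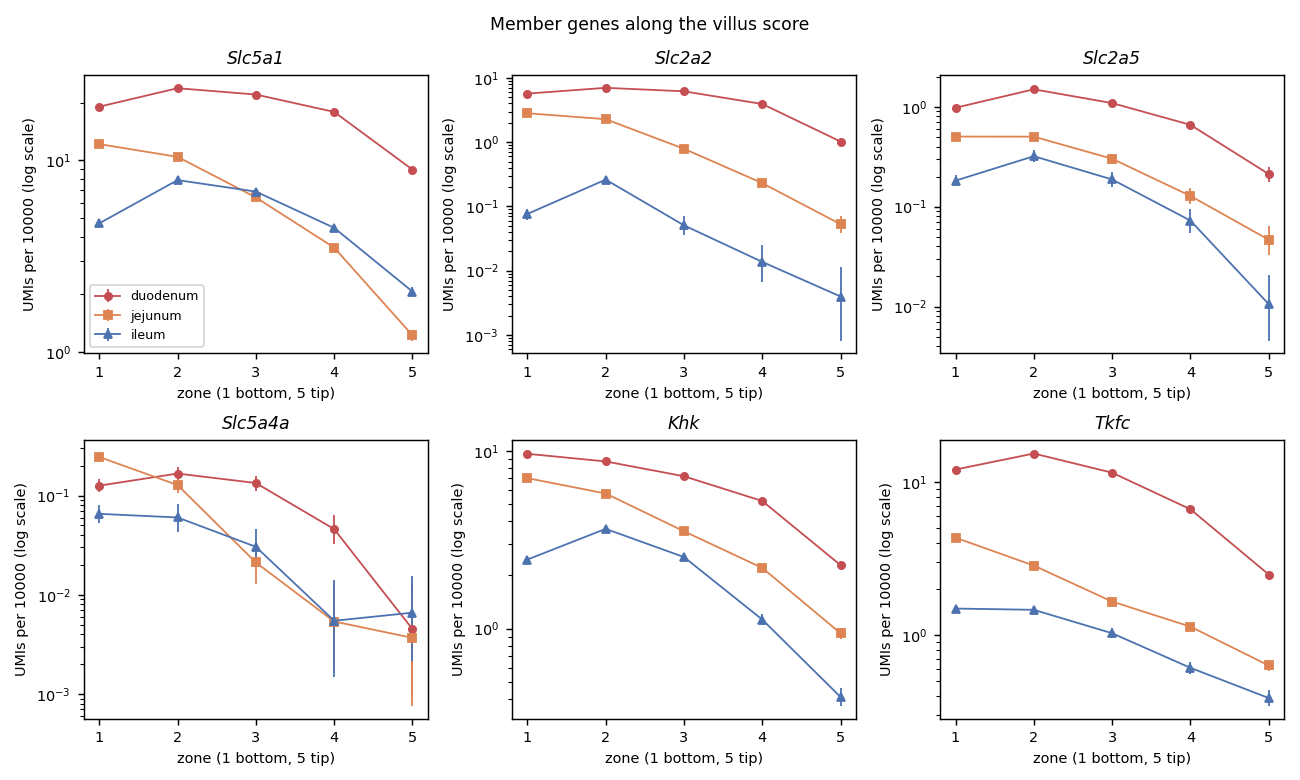
UMIs per 10000 (logarithmic axis) of each gene in 5 zones from the bottom (1) to the tip (5) of the villus, 1 line for each segment library, bars for 95% Poisson intervals. Each line ends at the tip below its values in zones 1 to 3, and the lines of Slc5a1 for the jejunum and ileum cross between zones 2 and 3. Levels count mitochondrial UMIs, whose median share was lower in the ileum than in the jejunum.

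**Figure D5:**
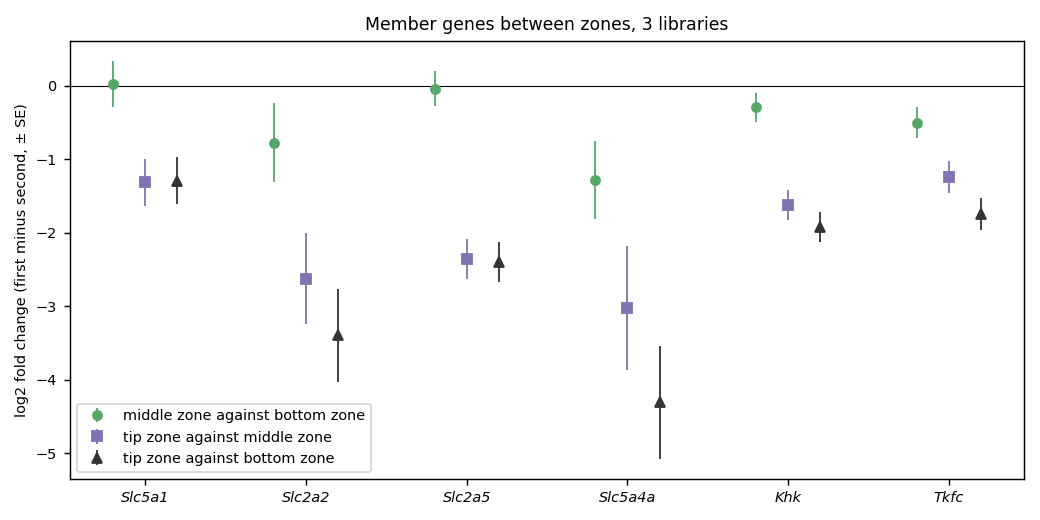
log2 fold change with its SE between zones over the 3 libraries (edgeR, library as a block). Both tip contrasts lie below 0 for all 6 genes, and the middle against the bottom zone lies near 0 for Slc5a1 (0.03) and Slc2a5 (-0.04).

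The other genes of the pathway did not all share this fall from the bottom to the tip, and counts in several groups lay near the 37.2% of all genes that fell and the 33.6% that rose. Of the 7 tested genes for fructose and sorbitol 5 fell and 0 rose, led by Aldoc (-3.44) and Akr1b3 (-2.98), the aldose reductase of the sorbitol route. Of 7 tested carriers 5 fell, among them Slc5a11 (-2.47) and Slc5a4b (-2.20), and Slc2a8 rose (1.56). Atp1b1, a subunit of the sodium pump, fell (-1.62). In the galactose route 3 genes fell, with the galactokinase Galk1 at -3.18, and 2 rose, with Pgm1 at 4.06. Of 8 tested genes of hexose phosphorylation and glycolysis 2 rose, led by Hk1 (3.61), and 2 fell, with Hkdc1 at -1.43. Mlxipl, which encodes the sugar-responsive factor ChREBP, fell (-1.71), and Arrdc4 rose (1.79). The median log2 change was -1.47 for the carriers, -0.57 for fructose and sorbitol and -2.16 for the 6 genes, against -0.10 for all genes.

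Between classes Slc2a1, the widespread GLUT1, was lower in enterocytes than in goblet cells (-5.90) and tuft cells (-6.79). Of 10 tested carriers 3 were higher in enterocytes than in EECs and 1 lower, Slc2a13 (-4.45), against 30.2% and 25.3% of all genes. Along the gut Mlxipl stood at 1.52, 0.508 and 0.298 UMIs per 10000 in enterocytes of the duodenum, jejunum and ileum. Arrdc4 stood at 0.174, 0.110 and 0.862 in the same segments, lowest in the jejunum and highest in the ileum.

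Over the 15 sums of library and zone, Pearson correlations between the 6 genes of log2(UMIs per 10000 + 0.1) lay between 0.730 (Slc5a1 with Slc5a4a) and 0.972 (Slc2a5 with Tkfc). The sums share libraries and depth, and the correlations are a description. Of 3815 genes, Smim24 and Ugt2b34 were among those most like Slc5a1 (both 0.973), and those most like Slc2a2 were Gpr155, Cyp2c66 and Heatr5a (0.979 to 0.984). Slc2a5 was most like Ehhadh, Fam234a and Asb13 (0.987 to 0.989) and Slc5a4a like Ckmt1, Cd302 and Mrpl4 (0.925 to 0.932). Khk was most like Cox17, Cbr1 and Ak3 (0.979 to 0.988), and Tkfc like Larp4b, Gpr155 and Hipk2 (0.980 to 0.986).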

How the data were processed

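RNA of single cells was measured in 3 libraries (10x Genomics 3′ kit v3), 1 for each segment. The authors deposited raw UMI counts per gene and barcode from Cell Ranger 3.0.2 on GRCm38 (mm10), with no normalization. Every column was used or served to name genes and cells (0 unused). The depth per library and the precision of its values stand in the report, and intervals cover counting error only. The study's filters were applied: at most 40% of UMIs mitochondrial, from 200 to 6000 genes, and from 800 to 50000 UMIs per barcode. Scrublet (in scanpy 1.11.5) called 0, 0 and 146 doublets in the duodenum, jejunum and ileum. It therefore did not work for the first 2 libraries, and cells it called were left out as an alternative only. Seurat 5.3.0 integrated the libraries on 2000 variable genes (30 components, resolution 0.8), and clusters took the class whose markers scored highest. A minimum score of 0.4 was chosen after the clusters were seen. Summed counts of at least 10 cells were tested with edgeR 4.0.16 (quasi-likelihood, filterByExpr, TMM, library as a block) in R 4.3.3, and a gene was called at an adjusted p under 0.05. Aldoa has 2 gene IDs, of which the first listed was used. The procedure was tested on simulated data with 2-fold changes, a fixed dispersion and no other difference between classes or zones. There it recovered 14.5% (enterocytes against T cells) to 44.0% (enterocytes against early enterocytes) of the changed genes that were tested, with 0 to 6 false calls. These rates need not hold for the measured data. The alternatives changed the test (DESeq2 1.42.0), scaling, gene and cell filters, clustering, landmarks, zones and the libraries included. Named were the 6 genes throughout, and of the pathway list at most 4 genes a group that passed with a log2 change of at least 1, largest first. Some genes of these lists are not reported here. For each of the 6 genes up to 3 genes of most like pattern were named among those with at least 0.5 UMIs per 10000. The genes and lists were chosen with earlier results of these data known. Sums and intervals were computed with scipy 1.17.1, pandas 2.3.3 and numpy 2.4.6 under Python 3.11.15.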

Additional observations from a re-analysis of the deposited data

Results flagged for a closer look

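Between the bottom and the middle of the villus, 3 of the sugar carriers went in opposite directions in different segments. The level of Slc5a1 in zone 3 was 1.16 times that in zone 1 in the duodenum and 1.47 times in the ileum, but 0.527 times in the jejunum. For Slc2a2 the ratio was 1.08 for the duodenum, against 0.280 for the jejunum and 0.666 for the ileum. For Slc2a5 it was 1.11 in the duodenum and 0.600 in the jejunum. The 95% counting interval of each of these ratios leaves out 1, but with 1 library per segment the difference between segments was not tested, and zones are ranks within each library.

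The 6 genes also had UMIs in barcodes outside the main comparisons, above the upper bound of their level in T cells. In an unnamed cluster led by pancreatic enzyme genes the levels were 8.83 for Slc5a1, 0.517 for Slc2a2, 0.246 for Slc2a5, 0.0479 for Slc5a4a, 4.49 for Khk and 2.81 for Tkfc UMIs per 10000. In the 10549 barcodes outside the cell filters, 10109 of them over the mitochondrial limit, they were 9.02 for Slc5a1, 1.79 for Slc2a2, 0.344 for Slc2a5, 0.0538 for Slc5a4a, 3.25 for Khk and 3.90 for Tkfc.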

How the results depend on the processing

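Against goblet cells, tuft cells, EECs, ISC/proliferating cells and T cells, the 6 genes kept their direction under every alternative in which they were tested. Slc5a4a fell under the gene filter, and so has no value, without the duodenum, without the ileum, with at most 20% mitochondrial UMIs and with sums of at least 5 cells. The number called with 1 library left out was 5 to 6 for goblet cells, 5 to 6 for tuft cells, 4 to 6 for EECs, 5 to 6 for ISC/proliferating cells and 5 to 6 for T cells. Against early enterocytes the 1 called gene, Slc2a5, became 0 with DESeq2, without TMM, without a gene filter, without the replicate block, with at most 20% mitochondrial UMIs, without mitochondrial genes, at clustering resolutions 0.4 and 1.2, without the 10% of cells with most enterocyte marker UMIs and with sums of at least 5 cells (0 to 1 with 1 library left out, the 1 being Slc2a2 without the jejunum, adjusted p = 0.0327 by edgeR). The log2 difference of Khk there, 0.09, turned to -0.13, -0.41, -0.059, -0.064, -0.16, -0.11, -0.074, -0.079, -0.090 and -0.12 in the same order (-0.38 to 0.093 with 1 library left out). Slc5a4a turned to -0.25 without TMM, Tkfc to 0.19 without the replicate block (-0.48 to 0.010 with 1 library left out), and Slc2a2 ran -0.067 to 1.43 with 1 library left out.

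Between the bottom and middle zones the count of 0 genes became 1 with DESeq2, 1 without TMM, 2 without a gene filter, 2 with bottom landmarks alone, 1 without Apoa4 and the Reg genes among the landmarks, 5 without early enterocytes and 0 to 3 with 1 library left out. Slc5a1 turned to -0.15 without TMM, -0.0081 without a gene filter, -0.027 with 3 zones, -0.020 with bottom landmarks alone, -0.48 without early enterocytes and -0.28 to 0.49 with 1 library left out. Slc2a5 turned to 0.027 without the replicate block, 0.63 with at most 20% mitochondrial UMIs, 0.12 with tip landmarks alone, 0.0039 with landmarks thinned to 2000 UMIs and -0.16 to 0.21 with 1 library left out. The 6 genes called at the tip became 0 against the middle zone and 2 against the bottom zone without the replicate block, and were 5 to 5 and 6 to 6 with 1 library left out. Against the middle zone Slc5a4a was lost without the duodenum (adjusted p = 0.126) and without the ileum (0.0577), and Slc2a2 without the jejunum (0.0558), by edgeR. Of 16 alternatives, the fit without the block among them, Slc5a4a was not called there in 4 and Slc5a1 in 2. Libraries of 3 segments of the same pooled mice are the blocks, and no further pairing was available. Over all genes, 4440 calls between tip and middle became 298 without the replicate block, 1472 without the jejunum, 2953 without the ileum, 2754 with at most 20% mitochondrial UMIs, 1904 with 3 zones and 2440 with bottom landmarks alone. Those between middle and bottom went from 5352 to 1502 without the replicate block, 2581 without the jejunum and 2922 without early enterocytes, and those between tip and bottom from 7886 to 5170 without the replicate block. Without the jejunum the calls against early enterocytes went from 5421 to 2861 and those against goblet cells from 5158 to 3199.

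Between the jejunum and ileum the 2 genes past 2-fold became 5 without mitochondrial genes, 5 with at most 20% mitochondrial UMIs, 1 by the mean of the cells, 4 with early enterocytes added, 1 in the middle zone alone and 5 with TMM factors. In the middle zone alone 6 genes, in place of 4, were past 2-fold between the duodenum and jejunum, and between the jejunum and ileum the log2 ratio of Slc5a1 was -0.10 and that of Slc5a4a -0.52. The log2 ratio of Slc5a4a between duodenum and jejunum was -0.12 with at most 20% mitochondrial UMIs. Unless an alternative by its construction leaves out cells, genes or libraries, the cause was not tested. Depth limits Slc5a4a, which had 3 to 5 UMIs per library at the tip.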
